A study of Homo sapiens with 2 samples.

Results

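Iron uptake, ferritin storage and haem breakdown were followed through 10 genes in a kidney cancer line with and without a working VHL gene. The members were TFRC and SLC11A2 for uptake, SLC40A1 for export, FTH1 and FTL for storage, IREB2 for sensing, and HMOX1, HMOX2, BLVRA and BLVRB for the breakdown of haem. They were taken as the probe sets that the platform annotation pairs with exactly 1 of these symbols. That rule found 23 of the 41091 single-gene probe sets, for 8 of the 10 members. FTH1 and IREB2 had no probe set named for them in the annotation used here and have no value below.

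The line labelled 786-VHL was derived from 786-O and carries a functional VHL allele. Its parent 786-O is an established line of human clear-cell kidney carcinoma with a mutated VHL allele, which is the background of both lines. Total RNA of each line was hybridised to 1 biotin-labelled Affymetrix array, so nothing below has a replicate check and no test or p-value was possible. The labels name no treatment, and they do not say whether 786-VHL is a single clone or whether 786-O carried an empty vector.

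Cells take up iron by binding the carrier protein transferrin to the transferrin receptor, and a divalent metal transporter then moves the metal out of the endosome. Surplus iron is stored inside ferritin, a shell of heavy and light chains, and ferroportin exports iron from the cell. Haem oxygenase opens the haem ring and releases iron, carbon monoxide and biliverdin, which biliverdin reductase turns into bilirubin. Iron regulatory proteins control several of these mRNAs by binding iron-responsive elements, and hypoxia-inducible factors and NRF2 act on some of the genes at transcription.

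Values are deposited intensities in arbitrary units, comparable between the arrays for 1 probe set and not between probe sets. Differences are log2(786-VHL + 16) minus log2(786-O + 16), so that positive values mean more signal on the array labelled 786-VHL. Folds use the same scale, which understates the change of dim probe sets. A probe set was counted as measured when either array exceeded a floor at the pooled median intensity, 22.3. The direction rests on the array labels, since the VHL probe set above that floor read 15.96 on the array labelled 786-VHL and 28.9 on the array labelled 786-O, the opposite of what an added VHL transcript would give if this probe set covered it. The other VHL probe set did not reach the floor, at 7.96 on the array labelled 786-VHL and 6.32 on that labelled 786-O.

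All 7 kidney epithelial genes with a probe set passed the floor, as did part of each marker list below. The kidney gene CDH16 was near it, at 28.8 on the array labelled 786-VHL and 25.9 on that labelled 786-O. PAX8, a renal lineage factor, read 1068 on the array labelled 786-VHL and 1521 on that labelled 786-O. Its 8 measured probe sets were all lower on the array labelled 786-VHL, by log2 differences from -1.08 to -0.29. The keratin gene KRT8 read 2116 on the array labelled 786-VHL and 1771 on that labelled 786-O. Of 7 leukocyte markers with a probe set, CD14, CD163, CD3E, ITGAM and PTPRC were below the floor on both arrays, and the summed marker intensity was 436 on the array labelled 786-VHL and 1002 on that labelled 786-O, most of it from LAPTM5, at 292 on the array labelled 786-VHL and 25.9 on that labelled 786-O, and LCP1, at 66.1 and 908 in the same order. The summed intensity of 5 erythroid markers, 4 of them past the floor, was 297 on the array labelled 786-VHL and 261 on that labelled 786-O. EPOR gave 173 and 155 of these sums in the same order. The sum of 6 endothelial markers, 4 of them past the floor, was 142 on the array labelled 786-VHL and 122 on that labelled 786-O. That of 8 fibroblast and pericyte markers, 4 of them past the floor, was 338 and 334 in the same order. Within the last list LUM was at least 1.39-fold higher, at 37.1 on the array labelled 786-VHL and below the floor at 5.64 on that labelled 786-O, and COL1A1 and ACTA2 differed by -0.21 and -0.33. Each sum runs over the same probe sets on both arrays, values below the floor included. It follows the brightest probe sets and is no level of a cell type. The part of these markers in the differences below was not tested, and in bulk RNA fewer cells and less RNA per cell cannot be told apart.

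Of the 23 member probe sets, 17 passed the floor and 6 did not. Among the 17, 15 were higher and 2 lower on the array labelled 786-VHL, with a median difference of 0.20, against 0.04 for all 24414 single-gene probe sets above the floor, of which 54.5% were higher. At least 2-fold apart were 2 of the 17, both higher and neither lower, 1 in HMOX1 and 1 in TFRC. Over all single-gene probe sets above the floor 4.11% were at least 2-fold apart and 1.42% at least 2-fold higher. With 1 probe set per gene, the one with the highest mean, 7 members were measured, 6 were higher and FTL was lower, and HMOX1 alone was at least 2-fold apart. Among all 13291 measured genes 3.72% passed 2-fold in either direction and 1.54% upward. The median of the 7 gene values was 0.38, and that of all measured genes 0.05 with an SD of 0.45.

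**Figure D1:**
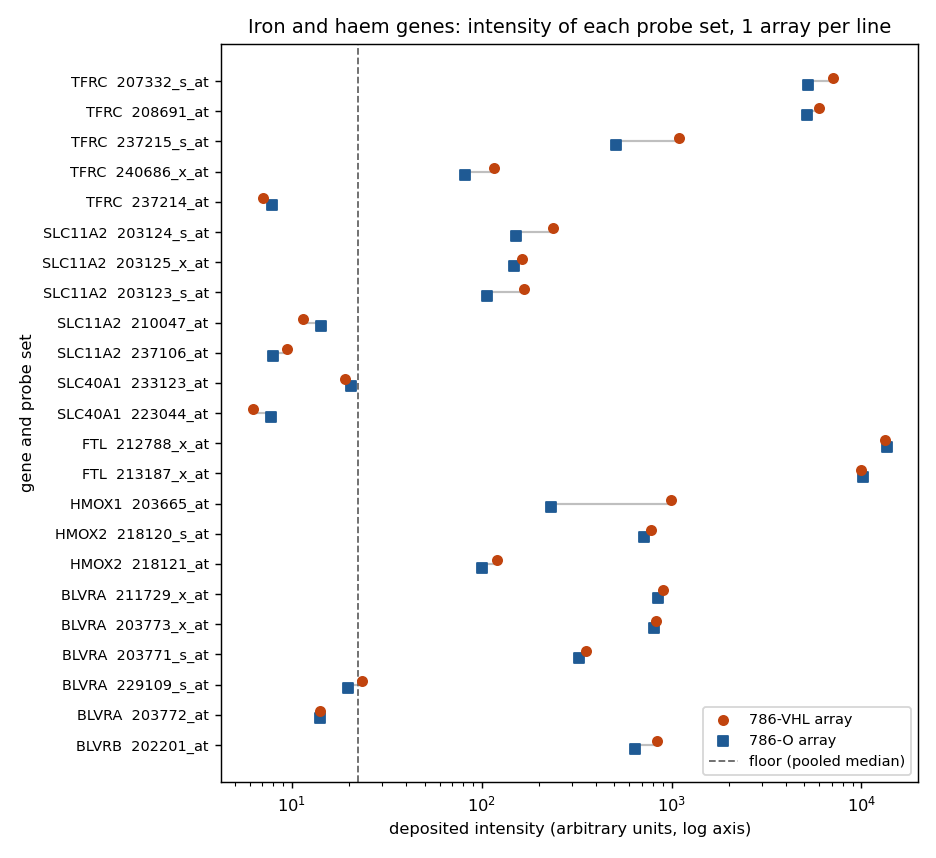
Deposited intensity of each of the 23 member probe sets on the 786-VHL array (circles) and the 786-O array (squares), in arbitrary units on a log axis, with the floor of 22.3 dashed. HMOX1 shows the widest gap of the members, at 990 on the 786-VHL array and 232 on the 786-O array, the FTL points nearly coincide, and 6 probe sets lie left of the floor on both arrays.

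Transferrin receptor mRNA was higher on the array labelled 786-VHL on every measured TFRC probe set, by amounts that differed between probe sets. TFRC encodes the receptor that carries iron-loaded transferrin into the cell. Probe set 207332_s_at read 7118 on the array labelled 786-VHL and 5218 on that labelled 786-O, a difference of 0.45. Probe set 208691_at read 5959 on the array labelled 786-VHL and 5193 on that labelled 786-O, a difference of 0.20.

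The largest TFRC difference came from 237215_s_at, at 1091 on the array labelled 786-VHL and 510 on that labelled 786-O, a difference of 1.07 that passes 2-fold. Probe set 240686_x_at read 117 on the array labelled 786-VHL and 81.2 on that labelled 786-O, a difference of 0.45. The 4 measured probe sets thus ran from 0.20 to 1.07, a span of 0.88, where the SD between probe sets of the same gene was 0.33 over the whole table. The lowest, 208691_at, lies within that SD. The remaining one, 237214_at, did not reach the floor, at 7.07 on the array labelled 786-VHL and 7.87 on that labelled 786-O. Only 237215_s_at passed 2-fold, and it is not the probe set that represents the gene by level.

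TFRC is a known target of hypoxia-inducible factors, whose core binding sequence is ACGTG or GCGTG. Because VHL acts on those factors, the sequence upstream of the TFRC start was searched, on both strands. RefSeq promoter windows of build GRCh38.p14 were at hand for 8 members, in 13 windows of 250 bases upstream, and neither HMOX1 nor FTH1 was among them. The TFRC window at chr3:196082091-196082340, minus strand, held 1 match of ACGTG and none of GCGTG. It is shown 5′ to 3′, ending at the last base before the start site, with the match in capitals, which begins 88 bases before the start.

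TFRC upstream: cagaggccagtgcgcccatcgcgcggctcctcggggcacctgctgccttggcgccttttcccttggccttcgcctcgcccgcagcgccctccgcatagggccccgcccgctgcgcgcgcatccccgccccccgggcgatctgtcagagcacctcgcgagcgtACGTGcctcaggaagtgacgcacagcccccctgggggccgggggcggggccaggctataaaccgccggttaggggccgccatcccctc

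Over all 35116 RefSeq windows of that length, 18.5% held ACGTG and 32.2% held GCGTG on either strand. A match is thus common and by itself does not show a bound site. It also gives no direction of change, and its part in the TFRC difference was not tested. Among the members ACGTG was also found upstream of HMOX2, with 3 matches of which a pair overlap as a palindrome, and of FTL, with 1.

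SLC11A2, which encodes the divalent metal transporter DMT1, was higher on the array labelled 786-VHL on all of its 3 measured probe sets. The representing probe set, 203124_s_at, read 237 on the array labelled 786-VHL and 151 on that labelled 786-O and was 1.51-fold higher. Probe set 203123_s_at read 166 on the array labelled 786-VHL and 106 on that labelled 786-O and was 1.49-fold higher. The third, 203125_x_at, read 162.5 on the array labelled 786-VHL and 148 on that labelled 786-O, a difference of 0.12, smaller than those of the other probe sets.

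None of the SLC11A2 probe sets reached 2-fold. At a threshold of 1.5-fold, 3 of the 17 measured member probe sets were higher, in HMOX1, TFRC and SLC11A2, and none lower, against 6.25% of all single-gene probe sets above the floor that were at least 1.5-fold higher. The other SLC11A2 probe sets, 210047_at and 237106_at, were below the floor on both arrays. On 203124_s_at and 203125_x_at, the values of both arrays end in fractional parts that 2.67% of all deposited values share, a regularity already present in the deposited table.

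SLC11A2 has 4 RefSeq windows, of which the one at chr12:51026385-51026634, minus strand, held 3 matches of GCGTG, more than any other member window. FTL and BLVRB had 2 matches each and BLVRA and IREB2 1 each, so that members with little or no difference, such as FTL, held the core too. The SLC11A2 window is shown for comparison with TFRC, 5′ to 3′ and ending at the last base before that start, with the matches in capitals. The third is CACGC, the same core read on the opposite strand.

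SLC11A2 upstream: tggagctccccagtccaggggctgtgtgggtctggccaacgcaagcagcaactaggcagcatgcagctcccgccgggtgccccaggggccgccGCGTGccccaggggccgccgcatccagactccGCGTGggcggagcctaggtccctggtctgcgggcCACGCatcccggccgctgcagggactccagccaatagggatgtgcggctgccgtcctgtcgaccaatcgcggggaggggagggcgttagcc

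The array does not say which SLC11A2 start the measured transcripts used. Another SLC11A2 window held 1 match of GCGTG and the other two held none of either core. SLC40A1, with 1 window, held none.

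SLC40A1, which encodes ferroportin, the iron exporter, was not measured on either array. Probe set 233123_at read 19.1 on the array labelled 786-VHL and 20.5 on that labelled 786-O. Probe set 223044_at read 6.25 on the array labelled 786-VHL and 7.80 on that labelled 786-O. Both are under the floor of 22.3, where no fold is given, and low signal does not show that the transcript was absent.

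Ferritin light chain mRNA differed little between the arrays. FTL encodes the chain that helps the iron core form inside ferritin. Its probe set 212788_x_at read 13350 on the array labelled 786-VHL and 13587 on that labelled 786-O, a difference of -0.03. Probe set 213187_x_at read 9884 on the array labelled 786-VHL and 10227 on that labelled 786-O, a difference of -0.05.

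Both FTL values lie inside the SD of 0.33 between probe sets of a gene. The maxima of the arrays were 18227 for that labelled 786-VHL and 18757 for that labelled 786-O, and whether FTL was near saturation was not tested. Both FTL probe sets carry the suffix _x_at, which marks probes shared with other sequences, and ferritin genes have many processed pseudogenes, so their reading is uncertain as to source. A probe set annotated to FTH1P5, a pseudogene of the ferritin heavy chain named here after its values were seen, read 8015 on the array labelled 786-VHL and 7880 on that labelled 786-O, a difference of 0.02. It cannot stand for FTH1.

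Ferritin is known to be controlled mainly at translation, through an iron-responsive element near the 5′ end of its mRNA, a step that mRNA intensities do not measure. The loop of such an element reads CAGTGN, and an unpaired C precedes it with 5 bases between them. The pattern was searched on the sense strand of the 50 bases from each start site. Elements farther along a transcript were not searched, so members without a match here may hold one elsewhere. FTL was the only 1 of the 8 members with a window to hold a match in those 50 bases, and 1.67% of all 35116 windows held one. The match begins at base 33, and the 30 bases at chr19:48965329-48965358, plus strand, are shown with it in capitals, in DNA letters.

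FTL element: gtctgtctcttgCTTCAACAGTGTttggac

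Haem oxygenase 1 mRNA showed the largest difference of the members. HMOX1 encodes the inducible haem oxygenase, which is switched on by haem and oxidative stress through NRF2 and release of the repressor BACH1. Its 1 probe set, 203665_at, read 990 on the array labelled 786-VHL and 232 on that labelled 786-O, and was 4.06-fold higher, a log2 difference of 2.02. Of all 13291 measured genes, 28 (0.211%) had a higher difference.

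With 1 probe set, HMOX1 has no check from other probes of the gene. Its 20 measured neighbours on chromosome 22, 10 on each side, had a median difference of 0.14, from -0.50 to 1.58, and 2 of them were at least 2-fold higher. The neighbours of TFRC had a median of 0.13, and 2 of 20 were at least 2-fold higher. For the other measured members the median of the neighbours lay between -0.10 and 0.12 and no neighbour was at least 2-fold higher. In the other direction, the lowest neighbour of FTL was at -1.75 and that of SLC11A2 at -1.09, both past 2-fold. Of all measured genes 1.54% were at least 2-fold higher.

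HMOX2, which encodes the constitutive haem oxygenase, differed far less than HMOX1. Probe set 218120_s_at read 782 on the array labelled 786-VHL and 712 on that labelled 786-O, a difference of 0.13. Probe set 218121_at read 121 on the array labelled 786-VHL and 101 on that labelled 786-O, a difference of 0.23. Both are within the SD of 0.33 between probe sets of a gene.

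The biliverdin reductases act after haem oxygenase. BLVRA encodes the reductase that makes bilirubin from the main form of biliverdin, and its 4 measured probe sets were all slightly higher on the array labelled 786-VHL, from 0.04 to 0.14. Its representing probe set, 211729_x_at, read 901 on the array labelled 786-VHL and 847 on that labelled 786-O. Probe set 203773_x_at read 828 on the array labelled 786-VHL and 806 on that labelled 786-O, and 203771_s_at read 356 and 324 in the same order. Probe set 229109_s_at passed the floor on the array labelled 786-VHL alone, at 23.4, and read 19.8 on that labelled 786-O.

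The fifth BLVRA probe set, 203772_at, read 14.1 on both arrays, 1 of 2127 probe sets of the table with the same value on both. BLVRB encodes biliverdin reductase B, a flavin reductase active on other biliverdin forms. Its 1 probe set, 202201_at, read 840 on the array labelled 786-VHL and 641 on that labelled 786-O, 1.30-fold higher, and 14.6% of all measured genes had a higher difference. Along the route of haem breakdown the difference was thus 2.02 for HMOX1, 0.13 for HMOX2, 0.09 for BLVRA and 0.38 for BLVRB on the representing probe sets.

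**Figure D2:**
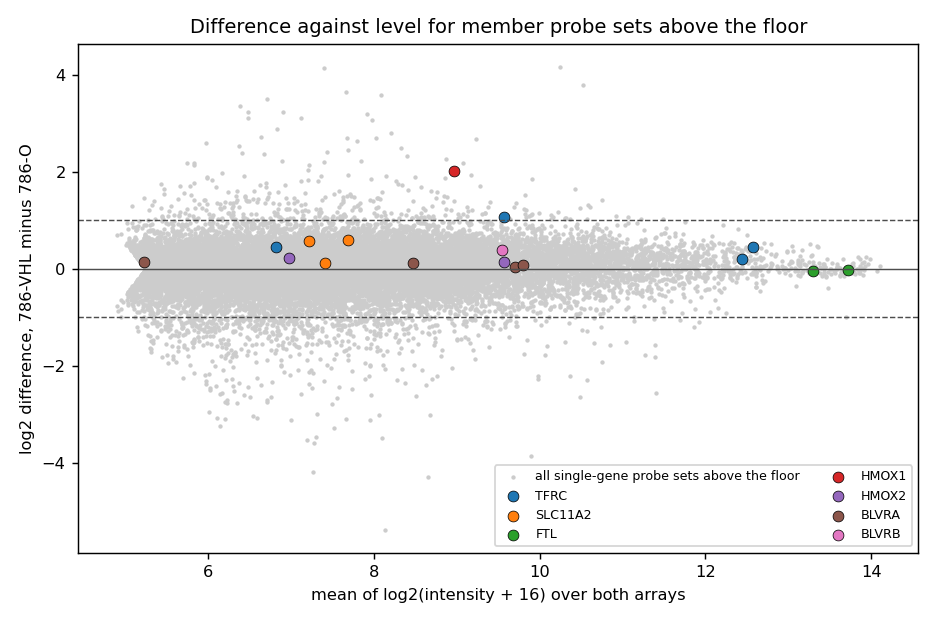
Log2 difference, 786-VHL minus 786-O, against the mean of log2(intensity + 16) for the 17 member probe sets above the floor (coloured by gene) and all 24414 single-gene probe sets above the floor (grey), with 2-fold dashed. HMOX1 lies at 2.02 and 1 TFRC probe set at 1.07, and the other members lie between -0.05 and 0.60.

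The other iron and haem lists are read against the 3.72% of all measured genes that were at least 2-fold apart and against the 56.8% of all measured genes that were higher. Of 22 measured genes of iron transport and sensing outside the members, 15 were higher and 7 lower on the array labelled 786-VHL, with a median of 0.13, and 1 was at least 2-fold apart, a share near that of all genes. That was LCN2, which encodes the siderophore-binding protein lipocalin-2, at 27.9 on the array labelled 786-VHL and 1800 on that labelled 786-O. STEAP1, of the STEAP family of metal reductases, differed by 0.73, and MELTF, which encodes the iron-binding melanotransferrin, by -0.55 with its 4 probe sets from -0.55 to 0.47.

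CP, which encodes the ferroxidase ceruloplasmin, read 15.998 on the array labelled 786-VHL, below the floor, and 38.0 on that labelled 786-O, at least 1.41-fold lower. The iron sensors differed little. ACO1, which encodes iron regulatory protein 1, differed by -0.11. FBXL5, which directs iron regulatory proteins to destruction when iron is plentiful, differed by -0.01, and NCOA4, the receptor that takes ferritin to the lysosome, by 0.22.

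None of 10 measured genes of haem synthesis was at least 2-fold apart, 6 being higher and 4 lower with a median of 0.14. ALAS1, which encodes the rate-limiting first enzyme outside red cells, read 689 on the array labelled 786-VHL and 422 on that labelled 786-O, 1.61-fold higher. CPOX differed by 0.44, FECH, which inserts the iron, by 0.40, and UROD by 0.32. None of 13 measured genes of mitochondrial iron and iron-sulfur assembly was at least 2-fold apart, with a median of 0.11. NFS1, the cysteine desulfurase of that assembly, differed by 0.82, ABCB10 by 0.58, the scaffold gene ISCU by 0.48 and the iron importer gene SLC25A37 by -0.78, with its 9 measured probe sets from -1.06 to 0.30.

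Of 11 measured genes of haem transport and binding, 7 were higher and 4 lower, and 1, PGRMC2, was at least 2-fold apart. PGRMC2 encodes a haem-binding membrane protein and read 172 on the array labelled 786-VHL and 480 on that labelled 786-O, a difference of -1.40, with its other measured probe set at -0.66. With a pseudocount of 1 that other probe set represents the gene, at -0.69, and ABCG2 at 1.15 is at least 2-fold higher in its place. SLC48A1, which encodes a transporter that returns haem from the lysosome, differed by 0.82. FLVCR2 differed by 0.38 on 1 probe set and by -0.02 on the other, the one left without suffixed probe sets, so that its direction is not settled. The exporter gene ABCG2 was below the floor on the array labelled 786-O and at least 1.62-fold higher.

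The known regulators of HMOX1 and ferritin went both ways, 7 of 15 measured genes being higher and 8 lower. NFE2L2, which encodes NRF2, differed by -0.04, with its other measured probe set at 0.27. BACH1, the competitor of NRF2 at the HMOX1 enhancers, differed by -0.09. These are mRNA values, and the activity of the regulator proteins was not measured. EPAS1, the gene of the HIF-2 alpha subunit, read 799 on the array labelled 786-VHL and 367 on that labelled 786-O, 2.13-fold higher, with its other measured probe set at 0.42. MAFF, a small MAF partner of NRF2 and BACH1, was 2.16-fold lower, with its other measured probe set at -0.58. Over the median of probe sets EPAS1 was at 0.76 and MAFF at -0.85, so that neither passed 2-fold. HIF1A passed the floor on neither array, at 5.69 on that labelled 786-VHL and 6.37 on that labelled 786-O. JUNB differed by 0.55 and ATF4 by 0.40.

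HMOX1, the ferritin genes, SLC40A1 and BLVRB are known NRF2 targets, and 19 other measured NRF2 targets were set beside them as a description. Of the 19, 17 were higher and 2 lower, 4 at least 2-fold higher and none at least 2-fold lower, with a median of 0.46. Of all measured genes 56.8% were higher and 1.54% at least 2-fold higher. The count at least 2-fold was 3 of 19 without the intensity trend, where SLC7A11 was at 0.99, and over the median of probe sets, 3 of 18 with the floor at the 75th percentile, and 2 with a pseudocount of 64. PIR, which encodes the iron-binding nuclear protein pirin, read 283 on the array labelled 786-VHL and 69.8 on that labelled 786-O and was 3.49-fold higher. SLC7A11, the cystine carrier gene, differed by 1.05, PGD, of the pentose phosphate route, by 1.12 with another probe set at 0.03, and the exporter gene ABCC2 was below the floor on the array labelled 786-O and at least 2.60-fold higher. Within the known NRF2 targets among the members the values were 2.02 for HMOX1, 0.38 for BLVRB and -0.03 for FTL. The core of the antioxidant response element bound by NRF2, TGACNNNGC, was searched on both strands of the 13 upstream windows and gave no match. Of all windows 10.9% held one. HMOX1 and FTH1 have no window among the 13, so nothing upstream of them was searched. For the members with a window, those letters are only absent from these 250 bases, and elements farther away were not searched.

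**Figure D3:**
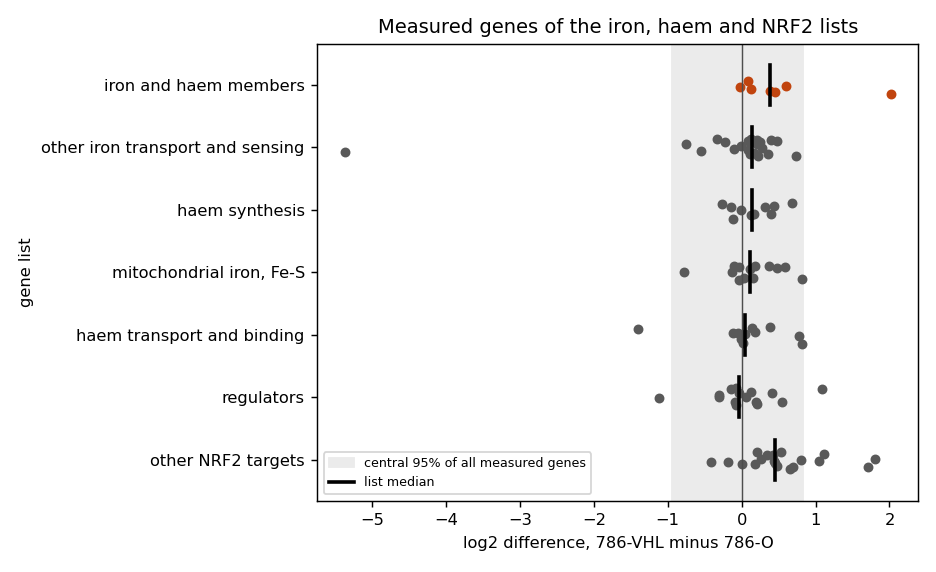
Log2 difference, 786-VHL minus 786-O, of each measured gene in the iron and haem members (top) and 6 related lists, on the representing probe set, with list medians as bars and the central 95% of all measured genes, -0.94 to 0.84, shaded. HMOX1 is the only member outside the shaded range, and the far left point is LCN2 at -5.37.

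The member differences changed little with the processing. HMOX1 lay between 1.83 and 2.09 over 7 alternatives to the normalization, floor, pseudocount and probe set rule. The floor and suffix settings only keep or drop a probe set, so they could not change its value. The ranges given here come from normalization, trend removal and pseudocount alone. TFRC 237215_s_at lay between 0.9998 and 1.10 and was just under 2-fold once the trend of difference with intensity was removed. SLC11A2 203124_s_at lay between 0.48 and 0.65, and FTL 212788_x_at between -0.12 and -0.02.

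**Figure D4:**
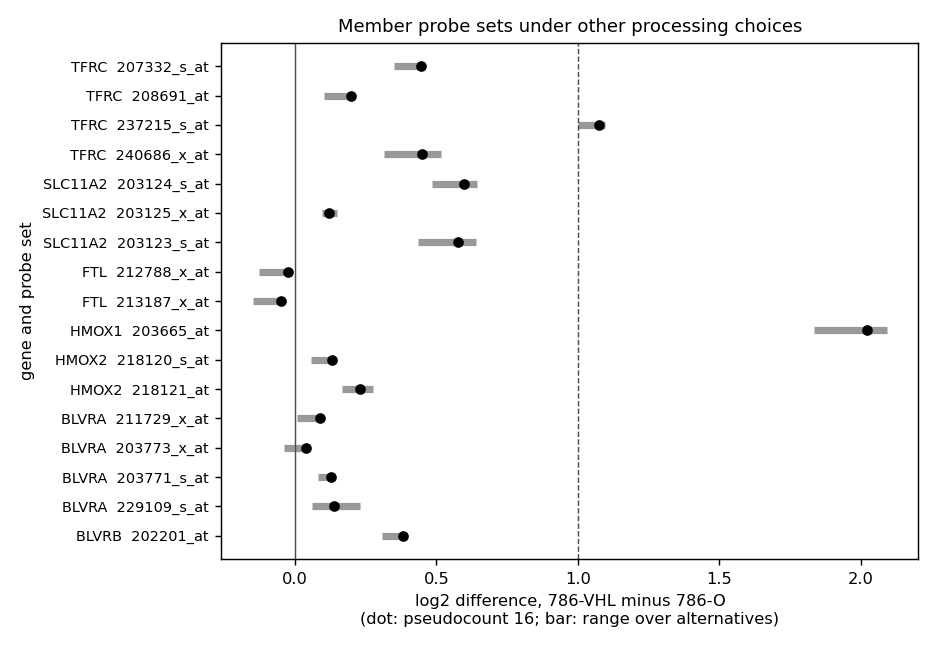
Log2 difference, 786-VHL minus 786-O, of the 17 member probe sets above the floor with pseudocount 16 (dots) and its range over the alternatives (bars), with 2-fold dashed. The HMOX1 bar stays right of the 2-fold line, the bar of TFRC 237215_s_at touches it, and only the bar of BLVRA 203773_x_at crosses 0.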

How the data were processed

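The authors deposited 1 intensity per probe set and array on a linear scale, as the values show, for 54613 probe sets. Per the submitters' processing notes R 2.10 was used. How background, normalization and probe summary were handled is not given in the sources used here, and each could compress or shift differences. Probe sets were named through the platform annotation, with 41091 pairing with 1 gene, 1801 with several and 11721 unnamed here. For 41037 the current symbol was looked up by Entrez number, whether or not it differed from the annotated one. For gene values the single-gene probe set of highest mean log2(intensity + 16) was taken.

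With 1 array per line the number of arrays limits the precision, and genes were described by folds of 2 and 1.5. The SD between probe sets of a gene, pooled over genes, covers probes and not cultures. The members and lists were chosen with earlier results of these data known. Named genes were all members, up to 4 measured genes of each pathway list by size of difference, and 8 fixed regulators and sensors. Of the marker lists only the values above are given. Counting by fold was tested on simulated data with planted changes. The software was Python 3.11.15 with statsmodels 0.14.6, pandas 2.3.3, numpy 2.4.6 and matplotlib 3.10.9.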

Additional observations from a re-analysis of the deposited data

How the results depend on the processing

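No paired analysis was possible because there was a lone array of each line, which also leaves no replicate to omit. Of 105 alternative values of member probe sets, 103 kept their sign and all 105 moved by less than the SD of 0.33 between probe sets of a gene. These counts include the floor and suffix settings, which only keep or drop a probe set and could not move its value. Only normalization, trend removal and pseudocount could do so. The exceptions in sign were both of BLVRA 203773_x_at, at -0.01 after quantile normalization and -0.04 without the intensity trend. The count of member probe sets at least 2-fold apart was 1 without the intensity trend and 1 of 4 without suffixed probe sets, where fewer probe sets were used. The member median was 0.26 without a floor, which adds SLC40A1. With a pseudocount of 1, 2 genes of iron transport and sensing passed 2-fold. With a pseudocount of 64, 1 regulator and 2 other NRF2 targets were, and over the median of probe sets 0 regulators were, as EPAS1 and MAFF fell short. At 1.5-fold in either direction the counts were 2 of 7 member genes, 3 of 22 for iron transport and sensing and 1 of 10 for haem synthesis. They were 2 of 13 for mitochondrial iron, 3 of 11 for haem transport and 7 of 19 for other NRF2 targets. The share of all measured genes at least 1.5-fold apart was not computed, so these counts stand without a background. For the other named genes too, the floor settings could not move a gene value and are included in the counts. Of 345 alternative values of the other named genes 338 kept their sign and 322 moved by less than that SD. The cause of these changes was not tested.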
